A study of Mus musculus with 52 samples.

Results

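The regions described here are 8840 cohesin sites on chromosomes 1 to 19 that had a Rad21 peak in both SmcHD1-deficient genotypes and none in wild-type (wt) cells. They were selected on measured values: a peak of the germline mutant (mut) list was taken if it overlapped, by at least 1 bp, a peak of the somatic knockout (somKO) list and no peak of the wt list. Of 64520 autosomal Rad21 peaks in mut cells, 17757 (27.5%) had no overlapping wt peak, and the 8840 sites, called new cohesin sites below, were 13.7% of the list and 49.8% of the peaks without a wt partner (95% interval 49 to 50.5). The other 8917 peaks without a wt partner were in the mut list alone, 45895 autosomal mut peaks were in all 3 lists, and 868 were in wt and mut but not in somKO. Because Rad21 presence defined the set, the Rad21 values below are a description and support nothing further.

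Cohesin is a ring-shaped complex that holds DNA strands together and extrudes chromatin loops, and Rad21 is the subunit that closes the ring. CTCF is a zinc finger protein that binds an asymmetric DNA motif and stops cohesin there, so that most strong cohesin peaks in mammalian cells are also CTCF peaks, whereas weaker cohesin peaks lie at promoters and enhancers. SmcHD1 is a non-canonical SMC protein, related to the cohesin and condensin subunits, that is known for its part in silencing the inactive X chromosome and autosomal clusters such as the protocadherins.

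The cells were female mouse embryonic fibroblast (MEF) lines from F2 embryos of a cross of the domesticus strain FVB with castaneus, sub-cloned so that the castaneus X is the inactive one in each line. The wt lists came from 1 clone (Wt2A1), with no change to SmcHD1. The mut lists came from 1 clone (Mut5A6) that carries the germline MommeD1 null allele of SmcHD1, and the somKO lists from 2 clones (A3-3 and D4) in which SmcHD1 was disrupted with CRISPR in cultured cells. According to the study's methods, the knockout was made in a wild-type line other than the one behind the wt lists, the knockout clones were triploid, and the autosomes of each line are a mosaic of both strains. Genotype, clone, strain of an autosomal segment and ploidy therefore cannot be told apart here. Rad21 was immunoprecipitated from 2 wt, 2 mut and 4 somKO libraries, CTCF from 3, 3 and 4, and SmcHD1 from 3 wt and 3 mut libraries, 24 of the 52 libraries of the series.

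The libraries of each group were merged into 1 list of peaks, so that no value has a replicate error, no test was possible, and the depth of the libraries is unknown. Shares are given with 95% Wilson intervals, which cover counting error only. The autosomal lists differed in length, with 65769 Rad21 peaks for wt, 64520 for mut and 87288 for somKO. In the opposite direction, 3870 of the 65769 wt peaks (5.88%) were missing from both other lists. Of the 33000 somKO peaks without a wt partner, 7504 (22.7%) overlapped a mut peak. A list names only regions past the authors' threshold, so that a site absent from the wt list may hold signal below it.

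The reference sequences of 6 new sites show what the regions look like, with 1 example for each common CTCF pattern and a second example where the CTCF motif is present. Each is the central 300 bp of a peak, on the plus strand of mm10. Capitals mark matches to the CTCF core motif searched here (CCA, 2 free bases, AG, 2 free bases, GGC) or to the AP-1 motif (TGACTCA), on either strand. AP-1 is the Fos and Jun family of transcription factors, which bind many enhancers of fibroblasts. The first pair had CTCF peaks in each genotype, the second pair in mut and somKO but not wt, the fifth in mut only and the sixth in none.
Intergenic, nearest Cyp2b19, chr7:26778351-26778650: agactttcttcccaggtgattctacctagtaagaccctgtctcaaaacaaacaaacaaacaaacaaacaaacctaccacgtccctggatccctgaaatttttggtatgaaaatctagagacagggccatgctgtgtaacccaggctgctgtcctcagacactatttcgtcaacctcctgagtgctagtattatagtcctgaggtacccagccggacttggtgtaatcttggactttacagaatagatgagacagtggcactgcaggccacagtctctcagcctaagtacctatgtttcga
Grin2b intron, chr6:136130498-136130797: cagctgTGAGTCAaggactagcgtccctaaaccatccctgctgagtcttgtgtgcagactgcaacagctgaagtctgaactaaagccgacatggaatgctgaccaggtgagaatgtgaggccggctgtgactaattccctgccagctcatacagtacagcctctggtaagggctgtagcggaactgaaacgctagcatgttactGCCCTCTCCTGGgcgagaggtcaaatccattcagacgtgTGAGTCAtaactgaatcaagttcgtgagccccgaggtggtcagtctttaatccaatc
Ppfibp2 intron, chr7:107738424-107738723: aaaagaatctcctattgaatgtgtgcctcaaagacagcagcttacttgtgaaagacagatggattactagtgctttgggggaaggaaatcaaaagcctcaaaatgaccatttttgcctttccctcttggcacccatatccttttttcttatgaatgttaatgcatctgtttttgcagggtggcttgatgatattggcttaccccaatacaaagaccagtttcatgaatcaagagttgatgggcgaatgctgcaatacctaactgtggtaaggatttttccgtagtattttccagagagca
Intergenic, nearest Matn1, chr4:131253203-131253502: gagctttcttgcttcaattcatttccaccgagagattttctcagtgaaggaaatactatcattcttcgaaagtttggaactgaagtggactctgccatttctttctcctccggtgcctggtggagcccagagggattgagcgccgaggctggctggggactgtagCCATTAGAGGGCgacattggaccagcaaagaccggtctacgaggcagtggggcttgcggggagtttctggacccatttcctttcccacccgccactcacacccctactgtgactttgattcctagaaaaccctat
Intron of a non-coding gene, nearest Med30, chr15:52774099-52774398: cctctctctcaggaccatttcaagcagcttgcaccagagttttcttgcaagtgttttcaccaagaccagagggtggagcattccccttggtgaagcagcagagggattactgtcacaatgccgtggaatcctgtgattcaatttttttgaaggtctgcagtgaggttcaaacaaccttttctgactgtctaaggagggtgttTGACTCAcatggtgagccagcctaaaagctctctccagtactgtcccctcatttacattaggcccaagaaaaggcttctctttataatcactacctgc
Sfi1 intron, chr11:3153984-3154283: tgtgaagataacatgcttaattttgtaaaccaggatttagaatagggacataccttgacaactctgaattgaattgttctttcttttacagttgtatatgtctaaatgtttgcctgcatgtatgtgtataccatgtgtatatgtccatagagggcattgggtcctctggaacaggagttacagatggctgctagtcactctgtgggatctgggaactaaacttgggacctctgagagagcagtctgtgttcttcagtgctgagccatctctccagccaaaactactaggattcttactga
The Grin2b and Matn1 windows hold the CTCF core, Grin2b also holds the AP-1 motif on both sides of it, and the Med30 window holds the AP-1 motif and no CTCF core. The Cyp2b19 and Ppfibp2 sites had CTCF peaks without a core match in these windows, although the whole Cyp2b19 peak does contain one.

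New cohesin sites ranked low in the lists that define them. The score percentile of a peak is its rank among the scores of its own list, from the lowest to the highest, with tied scores given their middle rank. The median percentile was 23.3 in the mut list, with an interquartile range from 11 to 39, against 63.4 for peaks in all 3 lists and 18.1 for peaks new in mut only. In the somKO list the median was 39.4, against 76.6 for peaks in all 3 lists. The median deposited score was 49 in mut and 101 in somKO, where peaks in all 3 lists had 269 and 834. The new sites were also narrower, with a median width of 371 bp against 833 bp. From the lowest to the highest quartile of mut scores, 4514, 3263, 990 and 73 sites were new in both. Asking for an overlap of 50% of both peaks, for presence as for absence, gave 8970 sites with a median percentile of 43.2 in mut, asking for a score of at least 50 in both lists left 3605, and asking for a distance of 1 kb from wt left 5562.

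**Figure D1:**
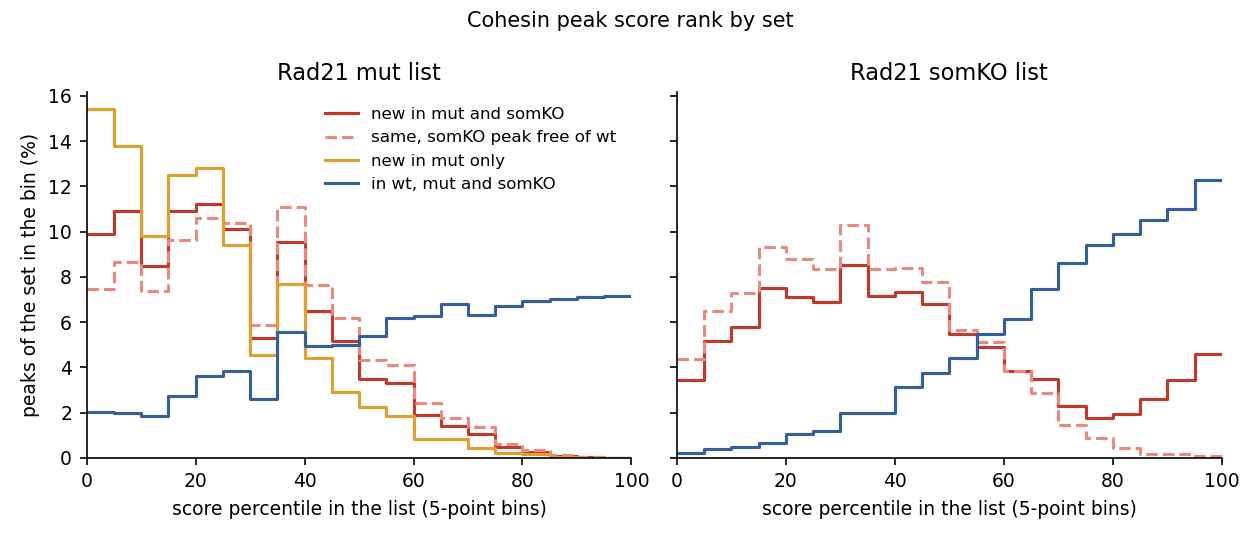
Share of each set of autosomal Rad21 mut peaks (y axis, %) by score percentile (x axis) in the mut list, left, and in the somKO list, right, in bins of 5 points. The new sites peak below the 50th percentile in both lists, and their rise at the right end of the somKO list disappears when the somKO peak must be free of wt overlap (dashed line).

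Some new sites lay at the edge of older ones. A wt Rad21 peak was within 1 kb of 3280 sites (37.1%, 36.1 to 38.1) and within 100 bp of 289 (3.27%), while 2584 (29.2%) were over 10 kb from any. For 1948 sites (22%), every overlapping somKO peak also overlapped a wt peak, so that 1 somKO peak bridged a wt site and the mut peak beside it. Of these bridged sites 96.8% were within 1 kb of a wt peak, and their median percentile was 14.7 in the mut list and 83 in the somKO list. Of the 1108 new sites at the 80th somKO percentile or above, 1050 (94.8%) were bridged. The other 6892 sites (78%, 77.1 to 78.8) overlapped a somKO peak that was itself new. At the limit of the rule, the new site on chromosome 1 from 39307660 to 39307965 ended 1 bp from a wt peak, and the peak on chromosome 17 from 24009068 to 24009383, at percentile 7.3 in mut, was left out because it overlapped a wt peak by 1 bp.

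CTCF was measured in separate libraries and was not used to choose the sites. No CTCF peak in any genotype was found at 5459 of 8840 new sites (61.8%, 60.7 to 62.8), against 38.2% of all autosomal mut peaks and 24.6% of peaks in all 3 Rad21 lists. Among new sites with a score of at least 50 in both Rad21 lists the share was 40.4%. A CTCF peak was present at 27.3% of new sites in wt (26.4 to 28.2), where all autosomal mut peaks had 54.8%. In mut the share was 32.2% (31.3 to 33.2) against 58% of all mut peaks, and in somKO 33.5% (32.6 to 34.5) against 57.8%. At peaks in all 3 Rad21 lists, CTCF was present at 69.9%, 71.7% and 72.7% in the same order. These shares were not adjusted for cohesin score or peak width, and new sites scored lower and were narrower than peaks in all 3 lists. In counts, 2412 new sites had a wt CTCF peak, 2848 a mut one and 2964 a somKO one.

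At 2086 new sites (23.6%) all 3 CTCF lists had a peak, so that CTCF was already listed there in wt while Rad21 was not, and this pattern was at 52.1% of all autosomal mut peaks. It moved to 41.4% of new sites with scores of at least 50 and to 15% with an overlap of 50%. CTCF was new together with cohesin, present in mut and somKO and absent in wt, at 424 sites (4.8%, 4.37 to 5.26). The share with this pattern was 2.44% among all autosomal mut peaks and 2.09% among peaks in all 3 Rad21 lists. The remaining patterns were CTCF in mut only (279 sites, 3.16%), in somKO only (266 sites, 3.01%), in wt and somKO (188 sites, 2.13%), in wt only (79 sites, 0.894%) and in wt and mut (59 sites, 0.667%). Over all mut peaks the same patterns took 2.94%, 1.61%, 1.67%, 0.51% and 0.519%, so that CTCF in wt alone was rarer than CTCF new in both among all peaks as well. With a score of at least 50 in both Rad21 lists, CTCF was at 44.2% of new sites in wt and 54.3% in mut, and new in both at 8.4%.

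The presence of CTCF moved with the score of the cohesin peak. From the lowest to the highest quartile of mut scores, 17%, 38.5%, 76.3% and 98.6% of new sites had a CTCF peak in mut, and 16.6%, 31.3%, 59.6% and 69.9% had one in wt. The wt and mut shares overlapped within counting error in the lowest quartile and stood furthest apart in the highest, where 72 of 73 new sites had CTCF in mut and 51 of 73 in wt. Peaks in all 3 lists had CTCF at 23.4% in wt and 21% in mut in the lowest quartile, and at 44.8% and 45.5% in the second. In the third quartile they had 73.3% and 78.8%, where new sites had 59.6% and 76.3%. In the highest they had 99% and 99.5%, so that nearly every such peak had CTCF. The pattern of CTCF in mut and somKO but not wt made up 2.17%, 5.73%, 12.2% and 24.7% of new sites over the quartiles, against 1.73%, 2.91%, 3.63% and 0.308% of peaks in all 3 lists. Peaks new in mut only gave a different picture in the highest quartile, where CTCF was present at 92.7% in mut but at 31.7% in somKO, over 41 peaks.

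**Figure D2:**
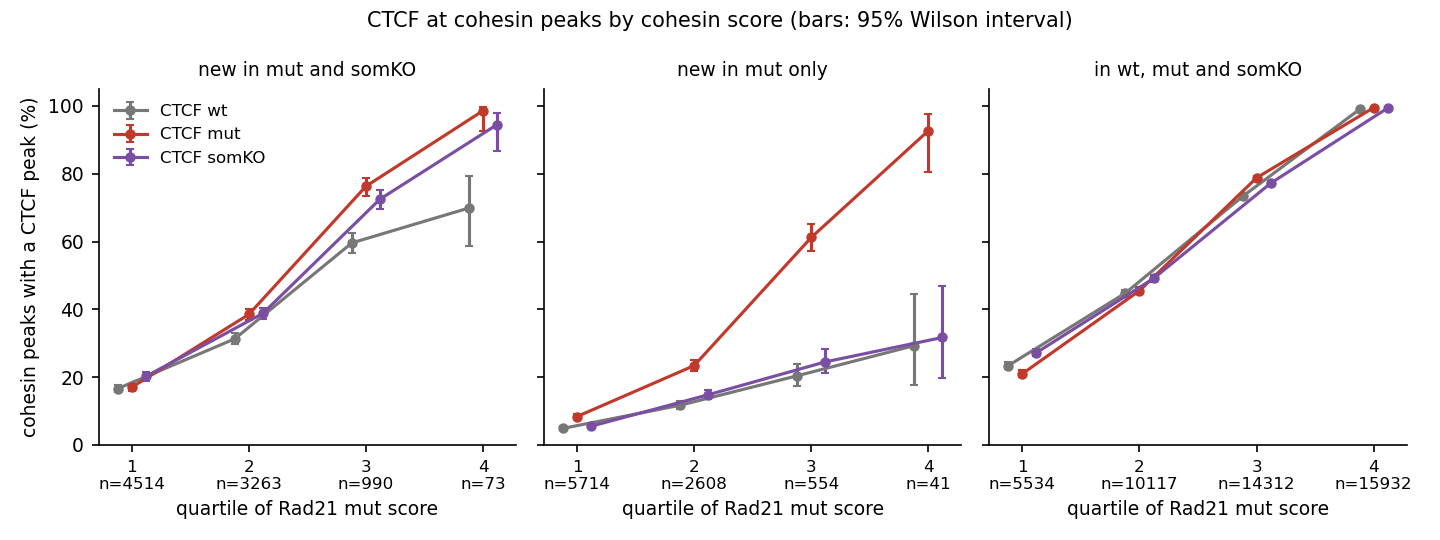
Share of cohesin peaks with a CTCF peak by genotype (y axis, %) by quartile of the Rad21 mut score (x axis, with the number of peaks), for 3 sets of peaks. In the highest quartile of new sites the mut and somKO shares reach 98.6% and 94.5% while wt stays at 69.9%.

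Among new sites that rank in the upper part of both lists (50th percentile or above in mut and in somKO, 594 sites, 6.72%), CTCF was present at 550 in mut (92.6%) and at 455 in wt (76.6%), and was new in both at 88 (14.8%). The 29096 peaks in all 3 Rad21 lists that pass the same limits had CTCF at 91.4% in mut and 89% in wt, and the new pattern at 1.74%. The sets were close in the mut share and apart in the wt share.

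Where CTCF was listed in every genotype, its rank was higher in mut and somKO at most new sites. At the 2086 new sites with CTCF in all 3 lists, the median CTCF score percentile was 44.3 for wt, 52.8 for mut and 56.2 for somKO. The CTCF percentile was higher in mut than in wt at 68.5% of them (66.5 to 70.5), higher in somKO than in wt at 82.7% (81 to 84.3), and higher in both at 60.5%. The 30865 peaks in all 3 Rad21 lists with CTCF throughout had median percentiles of 73.6, 72.4 and 77.1, and were higher in mut at 46% and in somKO at 71.2%. Peaks new in mut only with CTCF throughout, 569 in number, were higher in mut at 80.8%, in somKO at 74.2% and in both at 62.9%. A higher CTCF rank in mut was therefore not particular to sites new in both genotypes. The somKO CTCF list is the longest of the 3, and somKO percentiles were above wt at most sites of each set. In the highest quartile of mut cohesin scores, all 51 of 51 such new sites ranked higher in mut, with a median gain of 34.2 percentile points. Peaks in all 3 lists ranked higher at 52.4%, with a median gain of 0.247 points. The wt medians there were 40.1 for new sites and 83.6 for peaks in all 3 lists, which had less room to rise. All 10 such peaks new in mut only ranked higher in mut, with a median gain of 46.5 points. In the lowest quartile 50.7% of the new sites ranked higher in mut, with a median gain of 0.0917 points. The mut quartiles come from the contrast that chose the sites, and CTCF and Rad21 libraries of a genotype come from the same clone, so that the part of clone and copy number in these ranks was not tested.

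**Figure D3:**
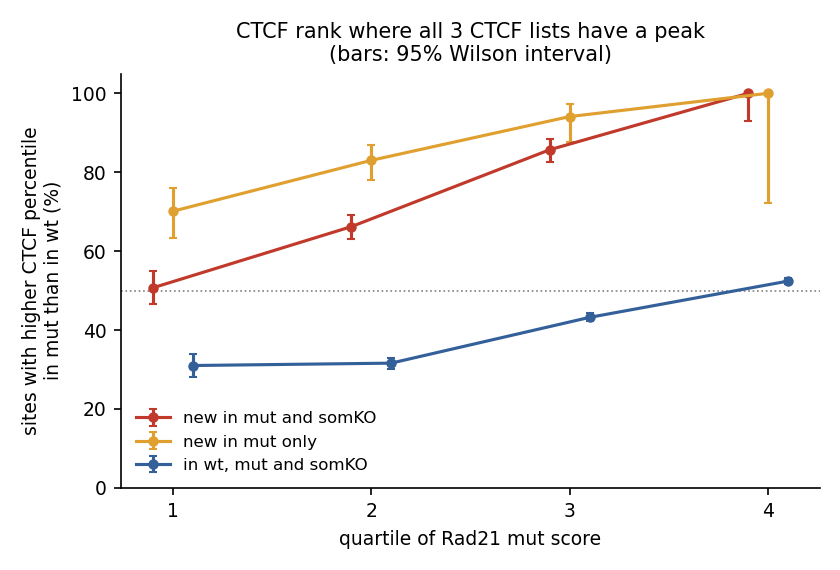
Share of sites with a higher CTCF score percentile in mut than in wt (y axis, %) by quartile of the Rad21 mut score (x axis), among sites with a CTCF peak in all 3 genotypes. New sites rise from 50.7% in quartile 1 to 100% in quartile 4, and peaks in all 3 Rad21 lists from 31% to 52.4%. Peaks new in mut only rise from 70.1% to 100%, the last over 10 peaks.

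Most of the highest-ranking new sites carried a CTCF peak in wt that ranked higher in mut and somKO. They were chosen by Rad21 rank in the lists that define the set, so that their CTCF ranks are a description. As given above, all 51 new sites of the highest mut quartile with CTCF in every genotype ranked higher in mut. All 12 sites with the highest lower percentile, the lower of a site's ranks in mut and somKO, were at or above 78.5 in both lists, and all 12 had CTCF peaks in both deficient genotypes, 10 of them also in wt. The first was intergenic, 21.4 kb from the start of Cyp2b19, a cytochrome P450 gene (chr7:26777918-26779083), at percentile 87.5 in mut and 84.9 in somKO, and its CTCF peak ranked at 56.2 for wt, 85 for mut and 86.7 for somKO. A second chromosome 7 site was in an intron of Cyp2f2, another cytochrome P450 gene, at 82.2 and 84.5, with CTCF at 54, 75.6 and 70.7. Both CTCF peaks ranked lower in the wt list than in the other lists.

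The second site of the ranking was in an intron of Grin2b, which encodes an NMDA receptor subunit of neurons (chr6:136129733-136131562). It stood at percentile 92.8 in mut and 84.8 in somKO, was 222 kb from any wt Rad21 peak and overlapped an SmcHD1 wt peak, and its CTCF percentile was 28.4 for wt, 77 for mut and 64.1 for somKO. A site in an intron of Dscam, a neuronal adhesion gene on chromosome 16, stood at 82 and 78.5, with CTCF at 34.9, 68.7 and 66.6. The exon of a non-coding gene 22.4 kb from the olfactory receptor gene Olfr725 (chr14:50061917-50063704) had cohesin at 84 and 81.2, and its CTCF percentile went from 9.76 in wt to 89.4 in mut and 79.9 in somKO. These sites share a low CTCF rank in wt and a high one in both other genotypes.

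At 2 leading sites CTCF was absent in wt. The site in an intron of Ppfibp2, a liprin gene (chr7:107737830-107739317), was at percentile 86.6 in mut and 81.9 in somKO, with CTCF at 61.3 and 55.4 and none in wt. The intergenic site 309 kb from Matn1 (chr4:131253040-131253664), 292 kb from any wt Rad21 peak, was at 78.9 and 82.8, with CTCF at 74.5 and 76.8. Between these 2 sites, only the printed Matn1 window holds the core motif in the reference. Of the rest, BC051142 had 2 sites, 1 in the gene and 1 beside it on chromosome 17, with CTCF listed in every genotype, and an intergenic site on chromosome 8 stood at 81.5 and 82.7.

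The clustered protocadherins on chromosome 18 held 7 of the 8 leading promoters. Protocadherins are cell adhesion proteins, and CTCF and cohesin are known to act at the promoters of their variable exons. These 8 were the highest-ranking new sites in promoters of coding genes, and 6 of them had CTCF in wt. The Pcdha4 promoter (chr18:36951900-36953414) was at percentile 88 in mut and 82.9 in somKO, with CTCF at 44.2 in wt, 86.4 in mut and 76.3 in somKO. The Pcdha12 promoter was at 80 and 89.1, and its CTCF percentile went from 6.55 in wt to 58.3 and 69.6. At Pcdha11 CTCF went from 21.2 to 86.2 and 67.2, at Pcdha3 from 41.3 to 78.1 and 68.8, at Pcdha6 from 52.9 to 84.3 and 78.3, and at Pcdhb11 from 41.3 to 73.2 and 63.8. The Pcdhga6 promoter, with cohesin at 72.3 and 75.2, had CTCF at 51.5 in mut and 56.7 in somKO and none in wt. At all 7 the CTCF peak was thus absent or of lower rank in wt. This was not particular to the cluster. Among all new sites with CTCF in every genotype, 85.7% in the third mut quartile and 100% in the highest ranked higher in mut than in wt.

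Within 10 kb of the 56 listed protocadherin genes, 18 of 53 mut cohesin peaks were new sites (34%, 22.7 to 47.4), where 13.8% of the mut peaks near all coding genes were (6534 of 47441). The median percentile of the 18 was 71.5 in mut and 73.4 in somKO, and 17 had CTCF in mut and 15 in wt. The genes of this cluster overlap, so that 43 genes near a new site are not 43 separate observations, and 17 of the 18 sites overlapped a somKO peak that was itself new. The exception, in an intron of the Pcdhg genes, ranked at 20 in mut and 99.5 in somKO. The list was chosen with earlier results of these data known, and a cluster on 1 chromosome cannot be told apart from the strain or copy number of that segment.

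**Figure D4:**
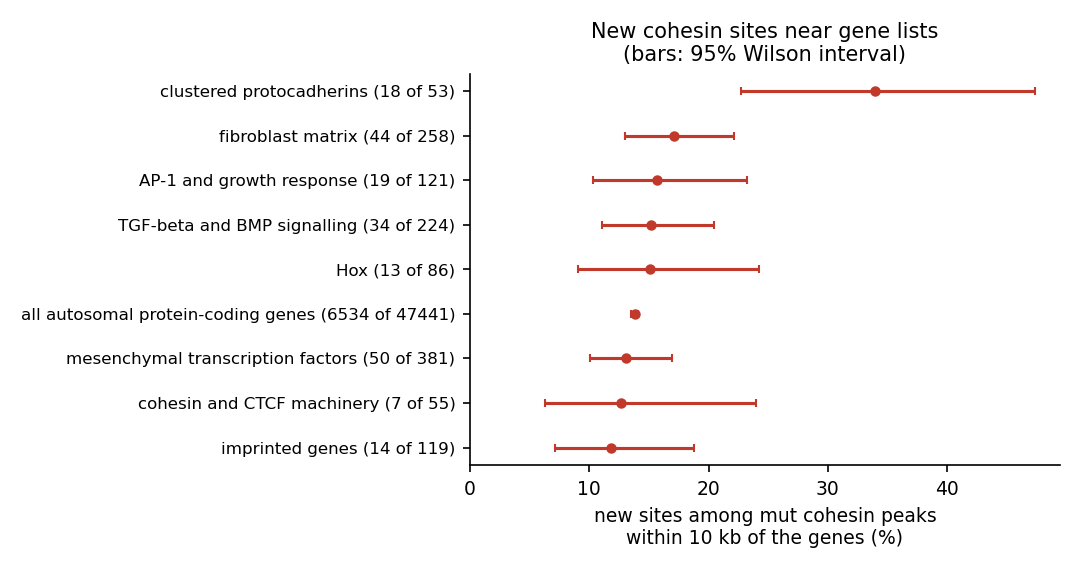
Share of Rad21 mut peaks within 10 kb of the genes of a list that are new sites (x axis, %), with the counts in the labels. The protocadherin list lies at 34%, and the intervals of the other 7 lists include the 13.8% of all coding genes.

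The other lists lay near the share of all coding genes. Hox genes, which pattern the body axis, had 13 of 86 peaks new (15.1%). They include the new site with the highest mut score, 2592 (percentile 94.6), at a promoter of the Hoxc5 to Hoxc10 region (chr15:102965619-102967191), which ranked at 57.1 in somKO. A site near Hoxc12 had 65.8 and 41, with CTCF new in both genotypes. At the Hoxb, Hoxa and Hoxd clusters the leading new sites lay at or below percentile 45.8 in mut, most without CTCF. Among imprinted genes, which are expressed from 1 parental allele, 14 of 119 peaks were new (11.8%). The strongest, in an intron of the domain of Peg3 and Usp29, was at 83.2 in mut and 67.3 in somKO, followed by the Zim1 promoter in the same domain at 69.6 and 61.1, and both had CTCF in every genotype. At Igf2r a site at 41.4 and 22.4 had CTCF new in both genotypes.

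For genes of cohesin and CTCF themselves, 7 of 55 peaks were new (12.7%). They lay near 4 of 18 genes: Nipbl, the cohesin loader (50.5 in mut, 46.6 in somKO), Cdca5 (sororin, 49.4 and 47), Ctcf (15.8 and 20.9) and Lrif1, a partner of SmcHD1 (11 and 62.5). Of these 7 sites, 5 overlapped a somKO peak that was itself new, and the leading site at Cdca5 was a bridged one. Fibroblast matrix genes had 44 of 258 (17.1%, 13 to 22.1), present near 22 of 30 genes (73.3%, where all coding genes, of median length 17.6 kb against 38.4 kb here, had 28.8%), but at a median percentile of 16.9 and with CTCF in mut at 6. Of these 44, 33 overlapped a somKO peak that was itself new. The sites leading at Col1a1, Col3a1, Sparc and Lox were bridged ones, while those at Col1a2 and Col12a1 were not. AP-1 and growth response genes had 19 of 121 (15.7%), with Fosl1 at 51.9 and 57.4 and Fosb at 58.9 and 54.9. Genes of TGF-beta and BMP signalling had 34 of 224 (15.2%), of which 7 lay within 10 kb of Tgfbr3, a co-receptor, and mesenchymal transcription factors had 50 of 381 (13.1%).

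The share of promoters was lower and that of introns higher at new sites than at peaks in all 3 lists, with counting intervals that do not overlap. Promoters, within 1 kb of a start, held 22.1% of new sites (21.3 to 23) against 27.8% of peaks in all 3 lists and 17.2% of peaks new in mut only. Introns held 41.5% against 35.5% and 45.8%, exons 4.23% against 4.08%, and intergenic sequence 32.2% against 32.6%. More than 50% of the sequence was repeat-masked at 12.5% of new sites and at 8.85% of peaks in all 3 lists. All mut peaks had 25.5% in promoters and 37.8% in introns, and for both classes the new sites lay between peaks in all 3 lists and peaks new in mut only. With an overlap of 50% of both peaks, promoters held 28.6% of new sites and introns 37.4%. That promoter share is not below 27.8%, and the shares of the other sets at that setting are not given.

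The CTCF core motif was found in the whole peak at 15.2% of new sites (14.5 to 16) and at 33.9% of peaks in all 3 lists, which are wider. The share at new sites was 26.1% with an overlap of 50% and 24.8% with scores of at least 50. In the central 300 bp the shares were 13% and 19.1%, with 16.3% over all autosomal mut peaks. Among new sites with CTCF in all 3 genotypes 37.4% held the core in that window, among those with CTCF new in mut and somKO 23.1% (19.4 to 27.4), and among those without CTCF 2.12%. At peaks in all 3 Rad21 lists the same patterns gave 26.3%, 11.9% and 1.56%. Over whole peaks they gave 42.2%, 27.4% and 3.02% at new sites, against 46.8%, 18.8% and 3.59%. Where CTCF was in every genotype, the order of the sets thus depended on the window. The median width there was 335 bp at new sites and 959 bp at peaks in all 3 lists. A match is a run of letters in the reference strain and not a measured binding site.

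The AP-1 motif stood in the central 300 bp of 15.3% of new sites (14.5 to 16) and 15.2% of peaks new in mut only. Peaks in all 3 lists had 9.62% and all mut peaks 11.2%. Over whole peaks the order was the other way, with 19.9% of new sites, 22.8% of peaks in all 3 lists and 21.9% of all mut peaks. In the central window the motif went with the absence of CTCF in both sets. It was held by 19.4% of new sites without CTCF (18.4 to 20.5) and 19.1% of peaks in all 3 lists without CTCF. Where CTCF was in every genotype the shares were 7.86% and 6.24%. Whether the larger CTCF-free share of new sites accounts for their higher central AP-1 share was not tested. The TEAD motif (GGAATG) was in the central 300 bp at 19.1% of new sites, 15.9% of peaks in all 3 lists and 17.3% of all mut peaks. Peaks new in mut only had 22.8%. Over whole peaks it was at 26.2% of new sites and 40.9% of peaks in all 3 lists. TEAD factors are the DNA-binding partners of the growth regulators Yap and Taz.

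New sites rarely overlapped SmcHD1 peaks. In all, 106 of 8840 (1.2%, 0.992 to 1.45) overlapped an SmcHD1 wt peak, against 2.78% of peaks in all 3 lists and 1.02% of peaks new in mut only. Over all mut peaks the share was 2.3%. Within 10 kb new sites had 6% (5.52 to 6.51), peaks in all 3 lists 6.21% and all mut peaks 5.85%. The median distance was 365 kb, 375 kb and 387 kb in the same order. With SmcHD1 peaks of score at least 50, the new sites had 2.84% and 817 kb, and the values of the other sets at that setting are not given. By quartile of mut score, from lowest to highest, 0.665%, 1.2%, 2.93% and 11% of new sites overlapped SmcHD1 (the last 8 of 73, 5.66 to 20.2). Peaks in all 3 lists had 0.922%, 1.97%, 3.65% and 3.16%, so that new sites were higher in the highest quartile only. Peaks new in mut only had 12.2% in that quartile, 5 of 41, an interval that overlaps that of the new sites. The overlaps were not adjusted for peak width, and new sites were narrower than peaks in all 3 lists.

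Of the 106 sites with SmcHD1, 24 were on chromosome 5 (22.6%) and 14 on chromosome 6 (13.2%). Of all mut peaks with SmcHD1, 24% were on chromosome 5 and 9.08% on chromosome 6, and of the autosomal SmcHD1 wt peaks 32.4% and 6.56%. After Grin2b, the leading ones were 3 sites on chromosome 5. The site in an intron of Rph3a, an exocytosis gene (chr5:120953928-120954585), ranked at 73.8 in mut and 82.9 in somKO. The intergenic site nearest Gm21149 (chr5:15498779-15499689) ranked at 73.6 and 85.6, with CTCF at 73.4 in wt, 93.5 in mut and 92.1 in somKO. The site 115 kb from Sfswap (chr5:129385082-129387032) ranked at 84.2 and 73.5, with CTCF at 42.1, 86.8 and 73.5. The 5th was near Nrxn3, a synaptic adhesion gene (chr12:88709307-88709670), at 73 and 79.3, with CTCF at 38.6, 77.3 and 77.9. The Bcl11a promoter (chr11:24080627-24082605), the only one of the 8 leading promoters outside the protocadherins, also overlapped SmcHD1, with cohesin at 79.1 and 70.6 and CTCF new in both genotypes. SmcHD1 chromatin was crosslinked like that of Rad21, and that of CTCF with formaldehyde alone.

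The leading new sites without CTCF ranked below the 12 highest sites. The first of them, in an exon of Sh3rf1 on chromosome 8, was a bridged site 0.143 kb from a wt peak, at 68.6 in mut and 88.6 in somKO. The Sfi1 site stood at 82.5 and 63.7 and was 3.23 kb from a wt peak, and the next was intergenic near Tm2d3 at 68.4 and 60.5. Where CTCF was in mut only, the leading sites were the one printed near Med30 (71.8 and 66.3) and the promoters of Tada1, a SAGA complex subunit (60.5 and 59.4), and Gna11, a G protein subunit (57.8 and 55.7). The CTCF peaks at both promoters were at the bottom of the mut CTCF list, at percentiles 2.95 and 2.77.

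Every autosome carried new sites, at 13.5% ± 2.01 (SD over 19 autosomes) of its mut peaks. The lowest share was 10.4% on chromosome 16 (9.07 to 11.8) and the highest 19.4% on chromosome 8 (18.1 to 20.7, 676 sites). Chromosome 8 also had the largest log2 ratio of somKO to wt peak numbers, 0.71 against a mean of 0.41 ± 0.10, while its ratio of mut to wt was 0.07. Chromosome 10, the next in share at 15.7%, had the highest log2 ratio of mut to wt, 0.29, and chromosome 16 one of the lowest, -0.26. Copy number or strain of a chromosome in a clone and genotype cannot be told apart in these lists. Leaving out chromosome 8 changed the share of new sites from 13.7% to 13.4%.

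**Figure D5:**
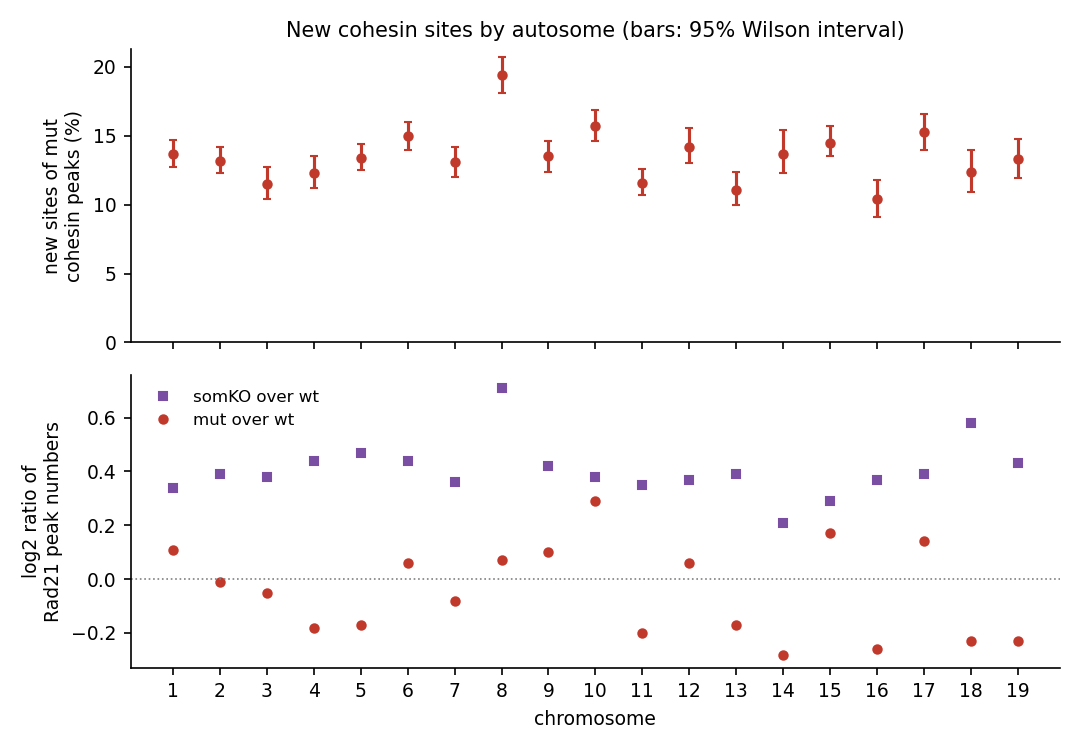
Share of Rad21 mut peaks that are new sites on each autosome (top, y axis in %) and log2 ratio of the number of Rad21 peaks to that of wt (bottom) for mut and somKO. Chromosome 8 stands out in the share, at 19.4%, and in the somKO ratio, at 0.71.

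The windows of 1 Mb with the most new sites held 102 to 142 mut peaks. Of 2357 windows with a mut peak, 1845 held a new site and 211 held 10 or more. The fullest was chr10:80000001-81000000, with 30 of 142 peaks, 17 of them at promoters, in a gene-dense segment with Ap3d1, Mob3a and Tmprss9. It was followed by 29 of 141 peaks on chromosome 15 from 77 Mb, where Myh9, a non-muscle myosin gene, held 8 and Rbfox2, a splicing factor gene, held 7. The adjoining window on chromosome 10 held 25 of 106, with 3 in Nfic, and chromosome 8 from 70 Mb held 24 of 102. Chromosome 10 from 120 Mb held 23 of 126, with 7 in Hmga2, a chromatin protein gene of embryonic mesenchyme, and 3 in Msrb3. In each of these windows mut had more Rad21 peaks than wt, most of all in the last, with 126 against 71 in wt and 90 in somKO. The part of copy number in these counts was not tested.

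By gene, long loci led. Gm20388, a readthrough locus of 4435 kb on chromosome 8 that spans many genes, held 75 new sites among 355 mut peaks. Zfhx3, a transcription factor gene of 1019 kb on the same chromosome, held 15 of 33. Cacna1c, a calcium channel gene, held 12 of 38, and Palld, an actin-binding protein gene on chromosome 8, 12 of 39. Fgfr2, a growth factor receptor gene, had 12 of 88 over an annotated span of 2961 kb. Its count is for that whole span. Cux1, a transcriptional regulator on chromosome 5, held 11 of 41. The readthrough loci Gm42416, Gm37013 and Gm37388 span the protocadherin cluster and held 15, 12 and 12 sites, the same ones in large part.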

How the data were processed

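Peaks of Rad21, CTCF and SmcHD1 ChIP-seq were analysed in wt, mut and somKO MEFs. The authors aligned reads with bowtie2 to mm10 with strain variants masked, merged the replicates of a group, and called narrow peaks with MACS2 on reads of both alleles. Tool versions and the use of inputs are not given in the sources used here. The deposited score is taken to be -log10 q times 10, an inference from its minimum of 13 in all lists, and served only to rank peaks within a list. The authors' q-value itself is not in the lists.

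Overlaps of at least 1 bp, positions counted from 1, were computed with Python 3.11.15, numpy 2.4.6, pandas 2.3.3 and scipy 1.17.1, drawn with matplotlib 3.10.9, and tested on simulated data. A site was assigned to the somKO peak of highest score that it overlapped. Genes came from GENCODE M21 on GRCm38, a promoter being within 1 kb of an annotated start, else the midpoint decided exon, intron or intergenic. Sequences, repeats and motifs came from the RefSeq FASTA of GRCm38. Score percentiles were taken over the whole of each list, and quartiles over the autosomal mut peaks. Members, gene lists and rules were chosen with earlier results of these data known. The text names the 12 highest-ranking sites, 8 promoter sites, 5 windows, 10 genes with most sites, 5 sites with SmcHD1, 3 sites for each of the 4 commonest CTCF patterns, and genes of the lists. The bridged sites were separated after seeing the data. The other alternatives were a 50% overlap, a score of at least 50, equal list lengths, a distance of 1 kb from wt, CTCF within 500 bp, other promoter, gene and SmcHD1 settings, and leaving out chromosome 8. One gene that the naming rule selects is not reported here. H3K27me3 and input libraries were not used here.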

Additional observations from a re-analysis of the deposited data

How the results depend on the processing

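Each list merges its libraries, so that leaving out a replicate was not possible. No paired analysis was possible because the result comes from no test and the lists carry no replicate numbers. The order of CTCF shares, lower in wt than in mut, held in each of the settings that changed CTCF, while the order of mut and somKO did not. With an overlap of 50% of both peaks, wt CTCF was at 22.6%, mut CTCF at 27.1%, somKO CTCF at 26.8%, no CTCF at 64.2%, CTCF of every genotype at 15% and CTCF new in both at 5.32%. The median percentile was 43.2 in mut, the median was 48 in somKO, promoters held 28.6%, exons held 3.82%, introns held 37.4% and intergenic sequence held 30.1%. The median distance to SmcHD1 was 399 kb, 5.11% lay within 10 kb of SmcHD1, the CTCF core was in 26.1% and the AP-1 motif was in 25.2%. With scores of at least 50 in both lists, 3605 sites were counted, new sites were 7.41% of mut peaks, wt CTCF was at 44.2%, mut CTCF at 54.3%, somKO CTCF at 54.6%, no CTCF at 40.4%, CTCF of every genotype at 41.4% and CTCF new in both at 8.4%. The median percentile was 40.9 in mut, the median was 47 in somKO, promoters held 24.7%, exons held 3.77% and introns held 39.8%. Of the sites 6.91% lay within 10 kb of SmcHD1, the CTCF core was in 24.8% and the AP-1 motif was in 20.8%. With lists of equal length, new sites were 9.94% of mut peaks, wt CTCF was at 33.6%, mut CTCF at 39.3%, somKO CTCF at 37.8%, no CTCF at 55% and CTCF of every genotype at 28.8%. The median percentile was 26.5 in mut, the median was 50 in somKO and introns held 40.2%. The median distance to SmcHD1 was 336 kb, 6.8% lay within 10 kb of SmcHD1, the CTCF core was in 18.6% and the AP-1 motif was in 18.1%. With sites at least 1 kb from a wt peak, 5562 sites were counted, new sites were 8.62% of mut peaks, wt CTCF was at 32.2%, mut CTCF at 39.6%, somKO CTCF at 40.1%, no CTCF at 55.7%, CTCF of every genotype at 29.6% and CTCF new in both at 6.08%. The median percentile was 31 in mut, the median was 35.7 in somKO, promoters held 21.1%, exons held 3.36% and introns held 43.6%. The median distance to SmcHD1 was 383 kb, 5.32% lay within 10 kb of SmcHD1, the CTCF core was in 20.6% and the AP-1 motif was in 25.2%. Without the bridged sites, an alternative chosen after seeing the data, new sites were 10.7% of mut peaks, wt CTCF was at 29.7%, mut CTCF at 36.3%, somKO CTCF at 36.7%, no CTCF at 58.7%, CTCF of every genotype at 26.8% and CTCF new in both at 5.54%. The median percentile was 28.2 in mut, the median was 32.8 in somKO, exons held 3.58% and introns held 42.6%. Of the sites 5.34% lay within 10 kb of SmcHD1, the CTCF core was in 18.2% and the AP-1 motif was in 22.8%. With CTCF counted within 500 bp, wt CTCF was at 34.6%, mut CTCF at 40.1%, somKO CTCF at 41.6%, no CTCF at 53.2%, CTCF of every genotype at 30.6% and CTCF new in both at 5.31%. With coding genes only, promoters held 19%, exons held 3.45%, introns held 38% and intergenic sequence held 39.6%. With promoters of 2.5 kb, promoters held 33.9%, exons held 2.85%, introns held 34.3% and intergenic sequence held 28.9%. With SmcHD1 peaks of score at least 50, the median distance to SmcHD1 was 817 kb and 2.84% lay within 10 kb of SmcHD1. With SmcHD1 peaks that lack a mut peak, the median distance to SmcHD1 was 384 kb. The motif shares above are for whole peaks, where the 8840 sites had the CTCF core in 15.2% and the AP-1 motif in 19.9%. In the central 300 bp, the CTCF core was in 13% and the AP-1 motif was in 15.3%. Without chromosome 8, new sites were 13.4% of mut peaks. The causes of these shifts were not tested. The depth behind the lists is unknown, and a threshold crossed in 1 list and missed in another is not a measured difference in binding.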
